A study of Gallus gallus with 8 samples.

Results

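Livers of ascitic female chickens were compared with livers of healthy females, using 4 of the 8 sequenced pools: 2 of ascitic and 2 of healthy females, chosen by the sex and health labels. The other 4 pools were labelled male. All birds were meat-type chickens on energy-rich feed. They were brought down to 24 °C by day 21 and kept at 18 °C from day 22 to the end on day 48, so healthy birds had met the same cold. The labels name no strain and no genotype, and the entry "Day 42" stands under a heading that does not make it an age. Each library held liver messenger RNA of 4 birds mixed before sequencing, so n counts pools, and p-values measure the spread between pools only. Birds were classed by whether they developed the disease, and no treatment was assigned.

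Ascites in meat-type chickens, also called water belly, is fluid that gathers in the abdomen when raised pressure in the lung arteries overloads the right side of the heart. Blood then backs up in the veins that drain the liver, and the congested liver leaks protein-rich fluid. Hepatocytes, the main liver cells, make most plasma proteins and lipids, and in birds the liver is also the main site of fat synthesis. A few secreted-protein transcripts usually dominate liver messenger RNA. In bulk tissue, fewer cells of a type and less RNA per cell cannot be told apart. The deposited table identifies genes by Ensembl ID without names, and 0 of its IDs could be matched to the reference table. Liver and blood cell markers were therefore not checked, and genes are described by direction, size and abundance, with 4 given by ID.

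The 4 female pools held between 26459951 and 33193179 reads over 14634 genes, of which 13766 passed a filter on low reads and were tested. Values are given as normalized reads, which are reads divided by the authors' size factor for the pool, and differences as log2 units on the deposited variance-stabilized scale, where 1 unit is 2-fold for abundant genes and understates the change of scarce ones. The pool healthy female 2 stood apart. Its size factor was 0.484, against 0.857 in healthy female 1, 1.46 in ascitic female 1 and 1.15 in ascitic female 2. A share of 39.3% of its reads came from its 10 most abundant genes, against 29.7%, 27.9% and 28.0% in the same order. Across all genes of the table, healthy female 1 had Spearman correlations of 0.958 and 0.954 with the ascitic pools and of only 0.905 with healthy female 2, whose own correlations with the ascitic pools were 0.876 and 0.877. These correlations describe pools that share their genes and carry no test. The library labelled healthy male 1 went against its label. Over 11 genes with at least 50 normalized reads in every female pool and at most 5 in each of the other 3 male pools, it held 5585 normalized reads in sum, against 6493 to 14499 in the female pools and at most 6.43 in those 3. Values for healthy males, the spread shared by all pools and the test between the sexes include this library.

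The ascitic female pools were the most alike of the 4 pairs of pools and the healthy female pools the least. The median gene differed by 0.18 log2 units between the ascitic female pools and by 0.65 between the healthy female pools. In the pools labelled male these medians were 0.29 for the ascitic and 0.36 for the healthy pools. More than 2-fold apart were 170 genes (1.23%) between the ascitic females, 466 (3.39%) between the ascitic males, 961 (6.98%) between the healthy males and 4094 (29.7%) between the healthy females. Of those 4094 genes, 2749 were higher in healthy female 2 and 1345 in healthy female 1. Scaling by total reads turned this balance, to 1200 genes higher in healthy female 2 and 4022 in healthy female 1. The healthy females remained the pair furthest apart, with 37.9% of genes over 2-fold, against 1.58% between the ascitic females.

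**Figure D1:**
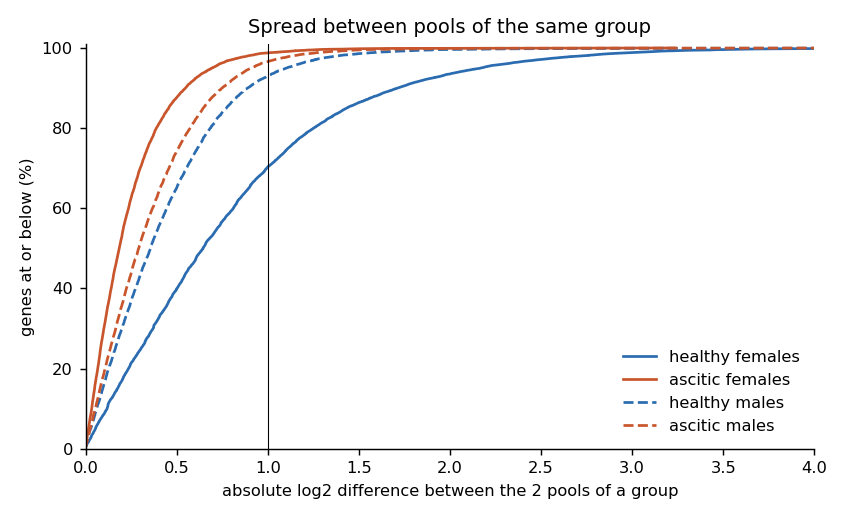
Share of the tested genes (vertical axis, %) whose 2 pools of 1 group differed by no more than the log2 value on the horizontal axis; the vertical line marks 2-fold. Solid lines are females and dashed lines males, blue healthy and orange ascitic; at 2-fold the healthy female curve leaves 29.7% of genes above it and the ascitic female curve 1.23%.

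The disease comparison within females asked which transcripts differed in level between ascitic and healthy livers of the same sex. Of 13766 genes 5 (0.0363%) passed an adjusted p of 0.05 in limma with all 8 pools sharing 1 estimate of spread per gene, 3 higher (0.0218%) and 2 lower (0.0145%) in ascitic females. All 5 changed by 2.35 to 3.51 log2 units, and in each of them every ascitic pool differed by over 2-fold from every healthy pool. The count sat on the edge of the threshold. The 5 genes shared an adjusted p of 0.0461, the next 21 genes shared 0.0504, 42 genes lay under 0.06 and 308 under 0.1 (limma). Without an adjustment, 2959 genes (21.5%) had a limma p under 0.05, 1425 higher and 1534 lower in ascitic females. Scaled by total reads, 211 genes passed in limma, 191 higher and 20 lower, with 4212 at an unadjusted p under 0.05. With 2 against 2 pools, no exact two-sided permutation test of a single value can go below 0.333, so single pool values are given without one.

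ENSGALG00000007140, a transcript of middling abundance, held 33.8 and 43.4 normalized reads in healthy females 1 and 2, and 440 and 441 in ascitic females 1 and 2. Both healthy pools were thus low and both ascitic pools nearly equal, at a ratio of the means of 11.4 (38.6 ± 6.78 against 441 ± 1.14, SD, n = 2 each). The estimated rise was 2.79 log2 units (SE 0.27; limma, adjusted p = 0.0461). Measured against healthy female 1 alone it was 2.90 (SE 0.26; limma, adjusted p = 0.00824), and the plain difference from healthy female 2 was 2.68. In males it went from 73.2 and 86.7 normalized reads in healthy to 888 and 812 in ascitic pools.

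ENSGALG00000034759 was close to silent in healthy females, with 4 reads in healthy female 1 and 2 in healthy female 2, or 4.67 and 4.14 normalized reads. A count of 0 would allow up to 3 reads, so these healthy levels lay near the limit of what the depth can show, counting error only. The ascitic females held 168 and 130 normalized reads. On the deposited scale it rose by 2.67 log2 units (SE 0.29; limma, adjusted p = 0.0461), and by 2.65 against healthy female 1 alone (SE 0.33; limma, adjusted p = 0.0143). That scale compresses scarce genes, and on a plain log2 scale of normalized reads with a pseudocount of 1 the rise was 4.78. The male pools showed the same order, from 11.8 and 11.6 in healthy to 224 and 155 normalized reads in ascitic birds.

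The other gene that was higher, given here without its ID, was also near silent in healthy females, with 2 reads in each healthy pool (2.33 and 4.14 normalized reads) and 98.5 and 106 normalized reads in the ascitic females. It rose by 2.35 log2 units (SE 0.27; limma, adjusted p = 0.0461), against 3.92 in males. The difference between the sexes had an unadjusted p of 0.00283 and did not pass after adjustment over all genes (limma, adjusted p = 0.638).

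ENSGALG00000041767 fell the furthest of the 5. It held 4154 and 7357 normalized reads in healthy females 1 and 2, and 443 and 467 in ascitic females 1 and 2, so the healthy pools lay far above the ascitic ones while differing from each other by 0.82 log2 units. The healthy mean was 12.6 times the ascitic mean (5755 ± 2265 against 455 ± 16.5, SD, n = 2 each), a log2 fold change of -3.51 (SE 0.40; limma, adjusted p = 0.0461). Against healthy female 1 alone it was -3.10 (SE 0.35; limma, adjusted p = 0.0102). The healthy male pools held 4660 and 3281 normalized reads and the ascitic male pools 392 and 220.

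ENSGALG00000023757 fell from 6653 and 6069 normalized reads in the healthy females to 1025 and 951 in the ascitic females, a ratio of the means of 6.43 (6361 ± 413 against 988 ± 52.3, SD, n = 2 each). Both healthy pools were close together here, and their difference of 0.13 log2 units lay at percentile 11.8 of all tested genes. The log2 fold change was -2.64 (SE 0.30; limma, adjusted p = 0.0461), and -2.71 against healthy female 1 alone (SE 0.28; limma, adjusted p = 0.00824). Scaled by total reads, the change against both healthy pools was -1.80 (SE 0.45; limma, adjusted p = 0.0602), which did not pass. In males, with the deposited scaling, this gene fell by 1.74 log2 units, from 2358 and 3356 to 860 and 774 normalized reads. The difference between the sexes did not pass (limma, unadjusted p = 0.0632, adjusted p = 0.818).

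**Figure D2:**
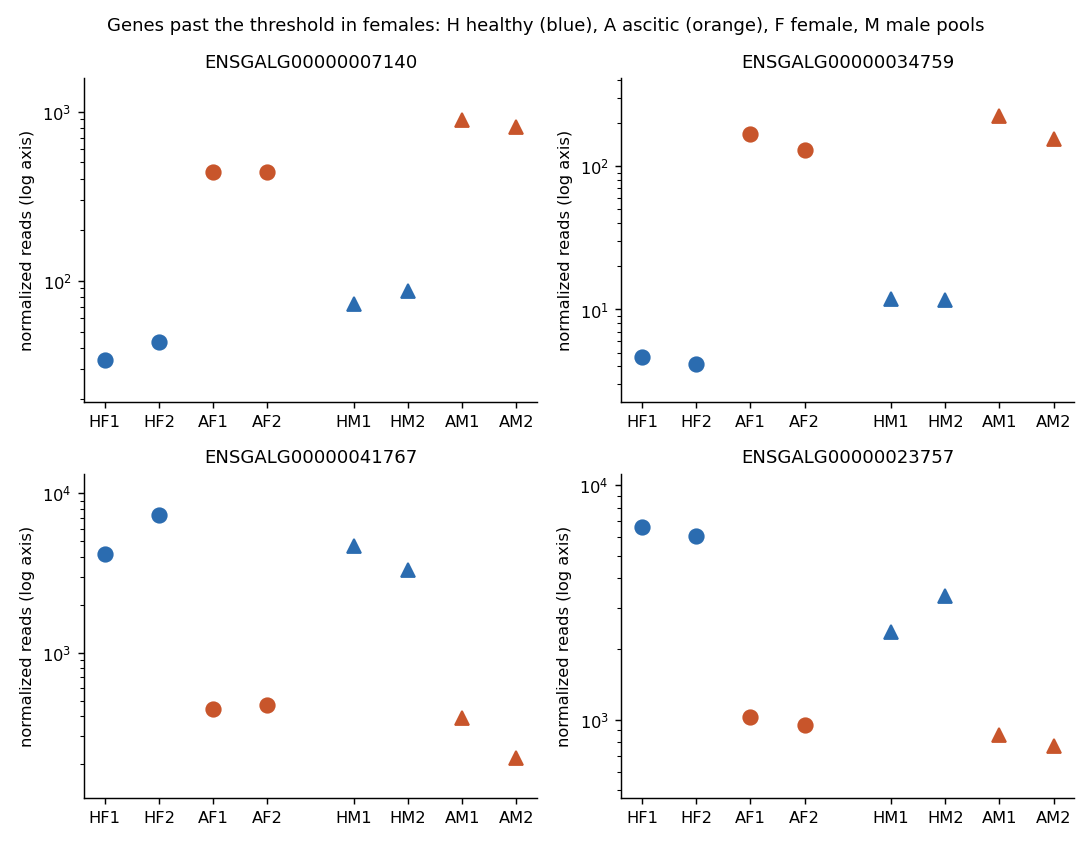
Normalized reads (log axis) of the 4 named genes in each of the 8 pools, circles for females and triangles for males, blue for healthy (H) and orange for ascitic (A). In every panel both ascitic female pools lie on 1 side of both healthy female pools, as with ENSGALG00000041767 at 443 and 467 against 4154 and 7357.

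Many more genes were far apart on average than passed. The mean of the ascitic females was over 4-fold from the mean of the healthy females for 249 genes, 49 higher and 200 lower, and the 5 genes above were the only ones of the 249 that passed in limma. Among these 249 genes the healthy pools themselves were over 2-fold apart for 189 (75.9%), and for 177 of those healthy female 2 was the higher pool. Over all tested genes 29.7% were over 2-fold apart in the healthy females, with healthy female 2 higher in 2749 of 4094. The 249 genes were chosen by a healthy mean that includes healthy female 2, so wide gaps between the healthy pools are partly built in. The pools of both groups overlapped in 7 of the 249, which the choice of genes by these same pools largely fixes. A difference larger than that of ENSGALG00000041767, the largest to pass, was seen in 11 genes that did not pass.

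The choice of the healthy pool set how many genes looked different. Compared with healthy female 1, 843 genes were over 2-fold higher and 606 lower in ascitic female 1, and 994 higher and 635 lower in ascitic female 2. Compared with healthy female 2 the numbers were 1971 and 2982 in ascitic female 1, and 2029 and 3007 in ascitic female 2. The mean of the ascitic pools was over 4-fold below healthy female 2 for 1150 genes and over 4-fold below healthy female 1 for 48 genes. Rises over 4-fold numbered 108 and 61. These comparisons share their ascitic pools. Scaled by total reads, genes over 2-fold lower against healthy female 2 numbered 981 and genes over 2-fold higher 6477, so the excess of lower genes against this pool depended on the scaling. Against healthy female 1 these numbers were 245 and 1860.

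**Figure D3:**
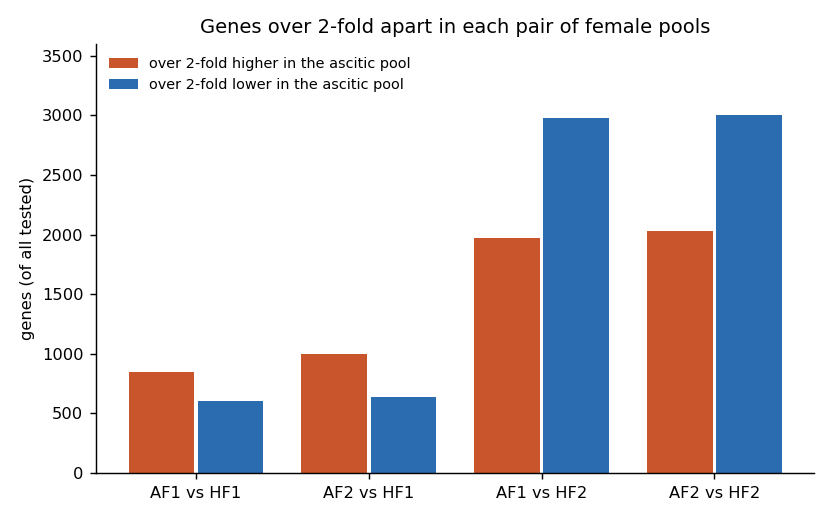
Number of tested genes over 2-fold higher (orange) or lower (blue) in an ascitic female pool (AF) than in a healthy female pool (HF), for each of the 4 pairs of pools. Against healthy female 1 the bars reach 994 higher and 635 lower genes at most, and against healthy female 2 they reach 2029 and 3007.

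Measured against healthy female 1 alone, 207 genes (1.5%) passed in limma, 105 higher (0.763%) and 102 lower (0.741%) in ascitic females, and all 5 genes described above were among them. With healthy female 2 left out, the lone healthy female pool was assumed to vary like the other groups. The measured healthy female pair went against that, with 29.7% of genes over 2-fold apart, against 1.23% to 6.98% in the other groups. Their disagreement no longer enters the spread of this fit, so its p-values may be too small. The 105 higher genes had a median log2 difference of 1.90 from healthy female 1 (interquartile range 1.71 to 2.32), and the 102 lower genes one of -1.81 (interquartile range -2.16 to -1.51). The smallest change among them was 1.21 for a higher and 1.26 for a lower gene, so changes nearer to 2-fold were not called at this number of pools. Higher genes were scarcer than lower genes, but were spread over the abundance classes described below much like all tested genes. Their median level was 67.7 normalized reads in healthy female 1, against 330 and 365 in the ascitic pools. Lower genes were mostly well expressed, with medians of 1701 in healthy female 1 and of 489 and 465 in the ascitic pools. Healthy female 1 was used in the choice, which favours low levels there in higher genes and high levels in lower genes. In healthy female 2, which was not used, the medians were 112 for higher and 2030 for lower genes. The deposited scale compresses scarce genes, so falls of scarce genes were less readily called. Scaled by total reads, 201 genes passed in limma, 171 higher and 30 lower, and 126 of them were among the 207. All genes called with the deposited scaling kept both ascitic pools on their side of healthy female 1. That could hardly come out otherwise. Scaling by total reads moved the median difference from healthy female 1 from 0.01 to 0.35 log2 units, less than the smallest change among these genes.

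Healthy female 2 had no part in that fit, and its levels can be set beside those of the 207 genes. For 98 of the 102 lower genes (96.1%) it also lay above both ascitic pools, and for 88 of the 105 higher genes (83.8%) it also lay below them. Among all tested genes whose ascitic pools both lay below healthy female 1, healthy female 2 lay above them too for 62.5%, and on the higher side the share was 66.3%. Genes with small differences are part of those shares, which are not matched for size. The median log2 difference from healthy female 2 was -2.05 for the 102 lower genes and 1.38 for the 105 higher genes, beside 0.08 for all genes tested. The positions of healthy female 2 given here use the deposited scaling and depend on it. By share of all reads, the 102 lower genes together took 1.61% in healthy female 2 and 2.31% in healthy female 1. With the deposited scaling, healthy female 2 exceeded healthy female 1 in 59 of the lower genes and was under it in 22 of the higher genes. It lay beyond both ascitic pools, on the side opposite to healthy female 1, for 10 higher and 4 lower genes. Differences from both healthy pools share the ascitic pools, so they are not independent of each other.

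**Figure D4:**
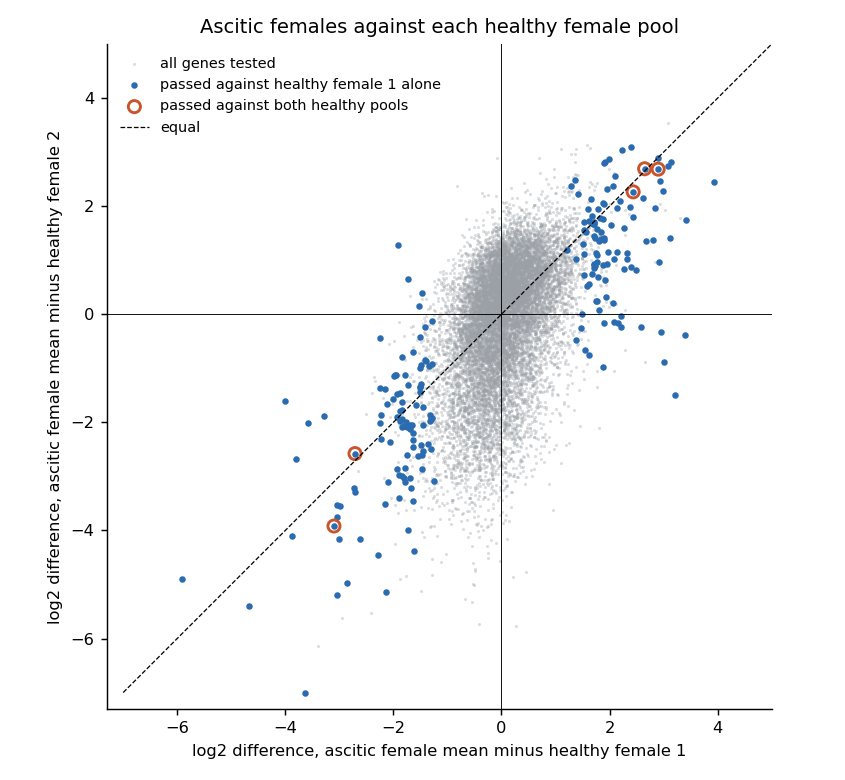
Log2 difference of the mean of the ascitic female pools from healthy female 1 (horizontal) and from healthy female 2 (vertical) for all 13766 tested genes in grey, the 207 genes that passed against healthy female 1 alone in blue, and the 5 that passed against both pools circled in orange. Grey points spread further downward than to the left, with 1150 genes over 4-fold below healthy female 2 and 48 over 4-fold below healthy female 1.

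Most of the 207 genes had the same direction in the pools labelled male, which entered their choice only through the shared spread. Of the 105 higher genes 103 were also higher in ascitic than in healthy males, and of the 102 lower genes 100 were also lower, or 98.1% and 98.0%. Over all tested genes the share with the same direction in males was 69.8% on both sides. That background takes in genes with small differences, so the shares are not matched for size. All 207 genes differed from healthy female 1 by at least 1.21 log2 units. The median male log2 fold changes of these genes were 1.83 and -1.72, beside 0.01 for all genes tested. Without the library labelled healthy male 1, which was left out after its values were seen, 103 and 98 kept the direction, with medians of 1.86 and -1.64, and the shares over all tested genes were 68.0% and 68.2%. Against both healthy female pools, the median female log2 fold change was 1.65 for the higher and -1.92 for the lower genes. The median of this female change minus the male one was -0.13 for the higher and -0.51 for the lower genes. It therefore includes healthy female 2, unlike the comparison that chose these genes. Summed over the 102 lower genes, the share of all reads was 2.31% in healthy female 1 and 1.61% in healthy female 2, against 0.505% and 0.414% in the ascitic females. In males the same genes took 1.47% and 1.16% of the reads in healthy pools, and 0.283% and 0.385% in ascitic pools. The 105 higher genes took 0.141% and 0.153% of the reads in healthy females and 0.891% and 0.834% in ascitic females. No gene (0%) passed the test of the difference between the sexes (limma, 835 genes at an unadjusted p under 0.05), and limma-voom passed 0 as well, with 803. Those 835 genes were 6.07% of all tested, and among the genes called against healthy female 1 alone they numbered 33 (15.9%). The called genes were chosen by female values that also enter the test between the sexes. A higher share among them is therefore partly built in, and the 2 shares are a description only. Omitting the library labelled healthy male 1 also gave 0 genes, with 650 at an unadjusted p under 0.05.

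These counts changed when any 1 pool was left out, male pools included, because every pair of pools shares in the estimate of spread. For the comparison with both healthy pools, omitting healthy female 2 gave 207 genes and omitting healthy female 1 gave 5050, while omitting either ascitic female or any male pool gave 0. For the comparison with healthy female 1 alone, omitting ascitic female 1 gave 0 genes and omitting ascitic female 2 gave 2, of which 1 was among the 207. Omitting the library labelled healthy male 1 or healthy male 2 gave 669 or 660, and omitting ascitic male 1 or 2 gave 75 or 78. Leaving out either pool of a group takes the disagreement of that pair out of the spread. The counts for male pools therefore do not single out 1 male pool. Leaving out healthy female 1 keeps healthy female 2 as the only healthy female pool.

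The female pools of both groups did not overlap for 7412 genes (53.8%), far more than were called. A random order of 2 against 2 pools gives no overlap with a probability of 0.333. The ascitic females were also closer together than the healthy females, with median differences of 0.18 and 0.65 log2 units, which can raise this share. The counts below are therefore a description, and how many of these genes changed with the disease was not tested. Both ascitic females lay above both healthy females for 3883 genes (28.2%) and below both for 3529 (25.6%). In 3266 genes (23.7%) both ascitic pools lay between the healthy ones, in 1527 with healthy female 2 at the top and in 1739 with healthy female 1 at the top. Scaled by total reads, 7693 genes had both ascitic pools above and 1154 had both below, since that scaling moved the median gene by 0.64 log2 units, against 0.04 with the size factors.

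A stricter group of genes was over 2-fold apart in every pair of an ascitic and a healthy female pool: 237 higher (1.72%) and 281 lower (2.04%). These genes were chosen by their female values, so their female differences are a description. Lower genes held 20.7% of all reads in healthy female 1 and 32.4% in healthy female 2, against 10.5% and 9.97% in the ascitic females. In the pools labelled male, which had no part in the choice, they held 18.9% and 16.4% of the reads in healthy pools and 14.2% and 11.8% in ascitic pools. The 237 higher genes were scarce, at a median of 31.5 and 31.0 normalized reads in the healthy females and of 174 and 164 in the ascitic females. They took 0.207% and 0.128% of reads in healthy and 1.12% and 1.03% in ascitic females, and in males 0.204% and 0.288% against 1.10% and 1.53%. Of the 237 genes 225 (94.9%) were higher in ascitic males, and of the 281 genes 272 (96.8%) were lower. Over all tested genes, with directions taken against healthy female 1, the share with the same direction in males was 69.8% on both sides. This background takes in genes with small differences and is not matched for size. Without the library labelled healthy male 1 the counts were 221 (93.2%) and 266 (94.7%), beside shares of 68.0% and 68.2% over all tested genes. Scaling by total reads raised the ascitic pools relative to both healthy pools, so the higher genes could hardly fail under it. All 237 of them stayed over 2-fold apart in every pair, which is therefore no check on them. Of the 281 lower genes 77 stayed over 2-fold apart in every pair, and 266 still had both ascitic pools below both healthy pools.

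Abundant transcripts tended to be lower in ascitic females relative to the rest, against either healthy pool. Genes were ranked by their mean normalized reads over the 4 female pools. The ranking thus shares its values with the differences, and genes high in 1 pool, as in healthy female 2, can be drawn into the upper classes. With the deposited scaling, 64 of the 100 most abundant had both ascitic pools below both healthy pools and 7 above. In the next 900 genes 518 were below (57.6%) and 85 above (9.44%). In the next 4000 these numbers were 1491 (37.3%) and 704 (17.6%), and in the remaining 8766 genes 1456 (16.6%) and 3087 (35.2%). Over all genes tested 25.6% were below and 28.2% above. Total reads changed the balance of all genes to 1154 below and 7693 above. The median log2 difference was -0.95 in the top 100 and -0.64 in the next 900, beside 0.04 for all genes tested. Over the 4 pairs of pools it ran from -1.50 to -0.55 in the top 100 and from -0.75 to -0.47 in the next 900.

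Healthy female 1 alone gave the same order of classes with smaller values, with medians of -0.56, -0.48, -0.17 and 0.17 from the top 100 to the scarcest class. Healthy female 2 alone gave -1.46, -0.77, -0.15 and 0.22. In the top 100 the healthy pools differed from each other by a median of 1.02 log2 units, against 0.17 between the ascitic pools, and healthy female 2 was the higher by a median of 0.81. Scaled by total reads, the medians against healthy female 1 were -0.13, -0.05, 0.24 and 0.45, and against both pools -0.10, 0.21, 0.63 and 0.68. Against healthy female 2 alone they were -0.18, 0.50, 1.06 and 0.91, so there the next 4000 lay above the scarcest class. Relative to the median of all genes under that scaling, 0.35 against healthy female 1 and 0.64 against both, the medians of the top 100 lay at -0.47 and -0.74 log2 units. The scaling thus changed the sign of the median in the next 4000 against healthy female 1. It did so in both middle classes against both pools and against healthy female 2 alone. The top 100 stayed below 0 and the scarcest class above 0. Genes called lower against healthy female 1 made up a larger share of the 1000 most abundant genes than of the scarcest class. The deposited scale makes falls of scarce genes less readily called. Genes called higher made up a share of both classes near their share of all tested genes.

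**Figure D5:**
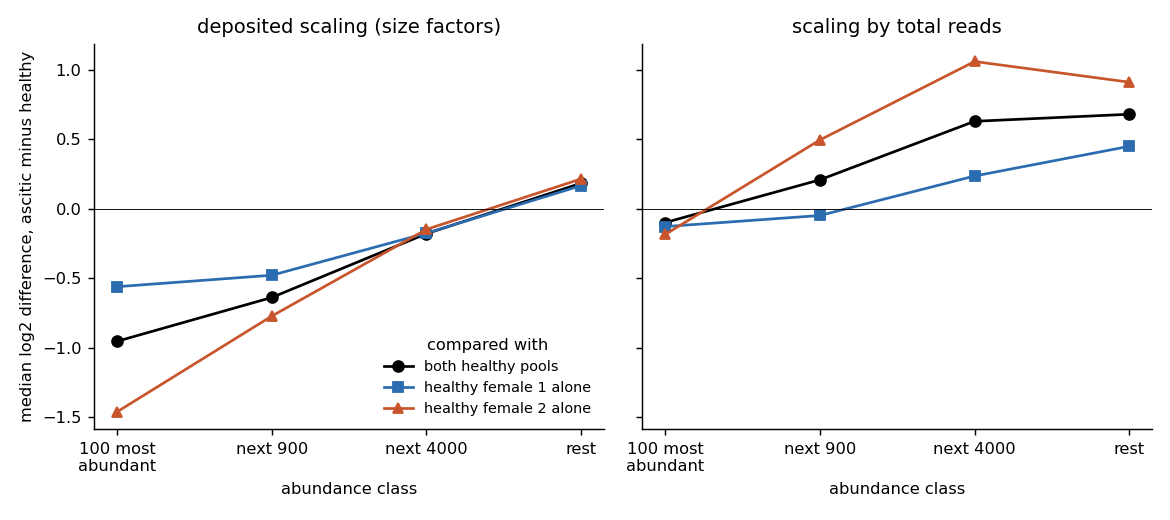
Median log2 difference, ascitic minus healthy females, in 4 abundance classes of 100, 900, 4000 and 8766 genes, against both healthy pools (black), healthy female 1 alone (blue) and healthy female 2 alone (orange). Left, the deposited scaling, where medians go from -0.95 to 0.18 against both pools; right, scaling by total reads, where they go from -0.10 to 0.68.

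Few genes went from near silence to a readily measured level. In 10 genes both healthy females held fewer than 10 normalized reads and both ascitic females at least 50, and 4 genes showed the reverse. The 10 genes had medians of 1.75 and 4.14 normalized reads in healthy females 1 and 2, and of 93.0 and 105 in ascitic females 1 and 2. These genes were picked by the female values that the test also uses, so their calls are a description: 2 of them passed against both healthy pools, where 0.0363% of all genes passed, and 8 against healthy female 1 alone, where 1.5% did (limma). In 8 of the 10, both ascitic male pools also lay above both pools labelled healthy male, as they did for 28.6% of all tested genes. Against healthy female 1 alone 30 genes met the same limits. Healthy female 2 held fewer than 10 normalized reads in 10 of these 30 genes, and its highest level among them was 103.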

How the data were processed

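The deposited table, named as counts, holds log2 values for 8 pools. All columns share the lowest value, 4.11. The deposited values match a variance-stabilized log2 scale, and inverting it gave whole reads for 100% of values (tolerance 0.01 of a read), with the authors' size factors. The submitters' processing notes name TopHat2 2.0.9, HTSeq 0.6.1 and DESeq2 1.22.1 among other tools, without saying what each did. The genome build is not given in the sources used here.

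A filter asked for 15 reads in total and for 2 pools with 10 reads or more, scaled to the median library. The deposited log2 values were fitted with limma 3.58.1 (R 4.3.3, statmod 1.5.0; trend and robust options) as 4 group means over all 8 pools. Benjamini-Hochberg adjustment ran over 13766 genes. A second fit left out healthy female 2. The functions were tested on simulated data. Depth, from 26459951 to 33193179 reads, bears on counting error alone.

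Named genes were those past the threshold with the 2 largest rises and the 2 largest falls and at least 1 CPM on average. The reference table (25635 genes, assembly GRCg7b) matched 0 IDs, so planned gene lists were not used. Comparisons, lists and rules were chosen with earlier results of these data known. Alternatives were other scalings, filters and scales, limma-voom, a replicate block, female pools only and pools left out.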

Additional observations from a re-analysis of the deposited data

How the results depend on the processing

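With both healthy pools the 5 genes became 211 with total reads (191 higher, 20 lower), 32 with upper-quartile factors, 30 on a log2 scale with a pseudocount of 1, 34 with the 5 CPM filter, 0 with limma-voom, 5 with sample weights (1 of them shared), 0 with female pools only and 669 without healthy female 2 and the library labelled healthy male 1. Against healthy female 1 alone the 207 became 60 with limma-voom, 322 with sample weights and 2860 with female pools only, where the ascitic pair alone gives the spread. The test between the sexes passed 6 genes instead of 0 without both pools. Against healthy female 1 alone, lower genes outnumbered higher ones with limma-voom and with sample weights, unlike the near-even split of the main fit. The cause of these changes was not tested. A replicate block was also fitted. Between groups, the deviations of same-numbered pools correlated from -0.42 (healthy females with healthy males) to 0.32 (healthy males with ascitic males) across genes. With the replicate block the counts were 1, which was none of the 5 (0 shared), and 337, of which 204 were shared; the numbers pair no pools by any label, and the deviations of same-numbered female pools correlated by 0.05 across genes. With 1 pool left out, the counts ran from 0 to 5050 against both healthy pools, from 0 to 669 against healthy female 1 and from 0 to 2227 between the sexes. The 7412 genes whose female pools did not overlap became 4719 with the 5 CPM filter, which tests fewer genes, 518 with a gap of 1 log2 unit, and from 9088 to 12563 with 1 female pool left out, where 3 pools overlap less by construction. Medians by abundance were -0.10, 0.21, 0.63 and 0.68 with total reads, and with upper-quartile factors -0.44 in the next 900, 0.010 in the next 4000 and 0.31 in the rest. With 1 female pool left out they ran from -1.46 to -0.56, -0.77 to -0.48, -0.18 to -0.15 and 0.17 to 0.22. The named genes were chosen for their large changes, so a kept direction is largely built in. Other filters, non-robust variances, the replicate block, female pools only and male pools left out did not alter their female estimate at all. Their direction could not change in those settings. Each named gene kept its direction in 19 alternatives and stayed past the threshold in 9 (ENSGALG00000007140, limma adjusted p 0.000431 to 0.438), 9 (ENSGALG00000034759, 0.000798 to 0.438), 10 (ENSGALG00000041767, 0.000369 to 0.438) and 8 (ENSGALG00000023757, 0.000594 to 0.438).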
